A study of Mus musculus with 72 samples.

Results

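Pla2g2d encodes a secreted phospholipase A2, and it was taken here as the transcript of mouse blood that had been singled out for its loss after irradiation. All probes that the array annotation names Pla2g2d were taken, which gave 2 of 39429 probes, and the brighter of them stood for the gene among the 10863 genes tested. The gene was chosen on its fall at days 1 and 7, so its changes on those days are given as a description, with no test. The comparisons of day 3 and the relation between mice of the same group were not part of that choice, and these were tested.

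Blood came from male C57BL/6 mice irradiated at 8 to 10 weeks of age. One exposure was to neutrons with the energy spectrum modelled on an improvised nuclear device, a beam that also carries some γ-rays, at 0.25 or 1 Gy. The other was to x-rays at 1 or 4 Gy. Control mice were sham-irradiated. Blood was drawn from the heart into an RNA-stabilizing solution, and globin transcripts were depleted before labelling. Each of the 72 arrays held the RNA of 1 mouse, with 5 or 6 mice in each of 13 groups. At days 1 and 7 there were controls and all 4 exposures. At day 3, which comes from the sample labels and is not described in the study's methods, there were controls, 0.25 Gy neutrons and 1 Gy x-rays. Levels are log2 intensities relative to the median detected probe of the same array, so a level of 0 is that of a typical detected probe, and a change is the mean level of an irradiated group minus that of the controls of the same day. The share of spots well above background was between 40.2 and 67.3% over the arrays.

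Secreted phospholipases A2 are small calcium-dependent enzymes that release fatty acids from phospholipids outside the cell. The group IID enzyme made by Pla2g2d is known mainly from lymph nodes and spleen, where antigen-presenting cells are a described source and where the polyunsaturated fatty acids it frees can be turned into lipid mediators that restrain inflammation. It lies in a cluster of related phospholipase genes on chromosome 4. The labelled tissue is whole blood, and its defining transcripts were present, with all 15 erythroid, 21 T cell and 13 platelet markers and 19 of 22 B cell markers among the genes tested. In whole blood, fewer cells of a type and less RNA per cell cannot be told apart.

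The last 30 bases of each Pla2g2d probe are shown because the probes gave different results and differ in where they end. Capitals mark AATAAA, the canonical signal for cleavage and polyadenylation of a transcript, searched for on the strand of the transcript.
A_55_P2173897: caaagagccctcttAATAAAcaactttcac
A_51_P232281: tctgtctgagtcagaaaatagccactttaa
The first of them lies at chr4:138336981-138337040 and the other at chr4:138337867-138337926 in build mm9, and the array annotation assigns both to transcript NM_011109. They start at positions 1186 and 2072 of that transcript and leave 826 bases between them. The upstream probe ends 10 bases after its AATAAA, whereas the downstream probe holds no such hexamer. Of all 39429 probes on the array, 10.6% hold AATAAA in their last 30 bases. Whether the probes lie in coding or untranslated sequence is not given in the sources used here.

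Only the downstream probe measured the transcript in most mice. It was well above background on 67 of 72 arrays, that is on every array except the 5 of 4 Gy x-rays at day 1. The upstream probe was well above background on 6 of 72 arrays, 2 of them in controls of day 7. Its mean level lay between -6.34 and -4.50 in the 13 groups, with -6.24 in the controls of day 1 and -6.05 in 4 Gy x-ray mice. Every level and change of Pla2g2d below therefore rests on the downstream probe alone. Among other genes, the array had 1 probe within 20 kb of these probes, for Pla2g5, and it was well above background on 2 of 72 arrays.

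**Figure D1:**
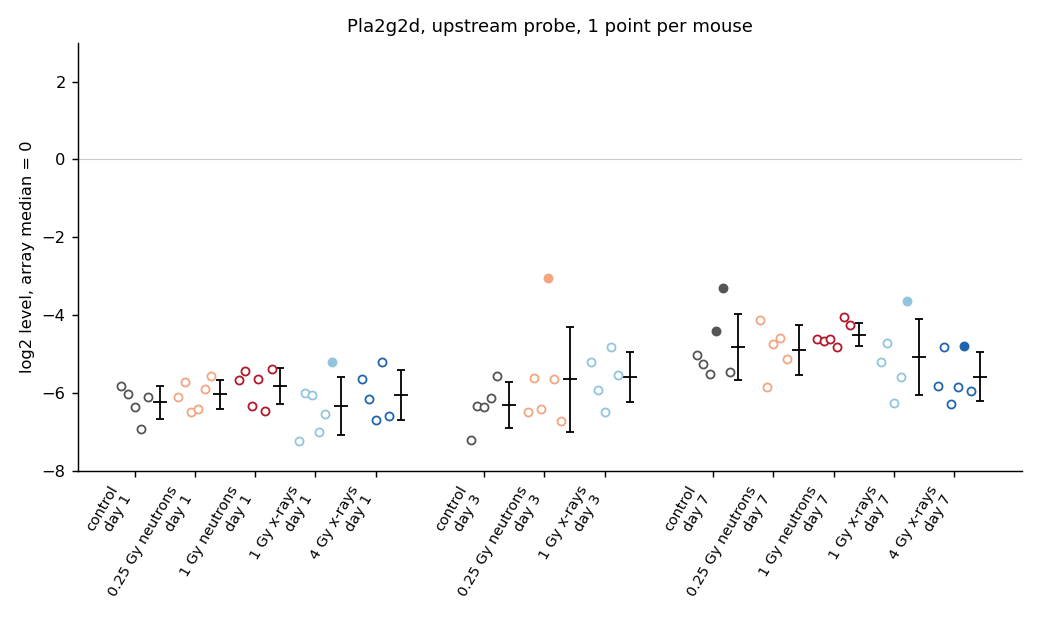
Level of the upstream Pla2g2d probe (log2, relative to the median detected probe of the array) in each mouse, by exposure and day. Filled points are arrays on which the probe was well above background (6 of 72), open points those on which it was not, and the black marks give the mean and SD of each group.

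Pla2g2d was readily measured in unirradiated blood. In the 16 control mice its level ran from 0.68 to 2.23 with a mean of 1.56 ± 0.45 (SD). The controls of day 1 had levels of 1.24, 2.04, 2.18, 1.02 and 1.69, and those of day 3 had 0.91, 1.36, 1.47, 1.77 and 2.23. The 6 controls of day 7 ranged from 0.68 to 2.00 with a median of 1.65. The mean of day 1 exceeded that of day 3 by 0.09, and that of day 3 exceeded that of day 7 by 0.05, which is less than the spread between mice.

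One day after irradiation, the transcript of 4 Gy x-ray mice was no longer above background in any mouse. Measured levels were -5.57, -6.47, -5.53, -5.63 and -5.21, against a lowest control level of 1.02. Because the probe was not well above background there, only a limit can be given. Against the dimmest probes that could still be measured on the same arrays, Pla2g2d was at least 82.7-fold lower than in the controls (at least 6.37 on the log2 scale). In this comparison 18.6% of the 10863 genes were called lower, a gene being called at p below 0.001 and a false discovery rate (FDR) below 0.05 in limma. The limit gives Pla2g2d no exact rank among these genes, and transcript ENSMUST00000192250 at -6.80 and Fcer2a at -6.56 had fitted changes beyond it. By day 7 the levels were higher again, from -4.09 to -3.32 with a median of -3.71, and all 6 mice were above background. No mouse of day 7 overlapped with those of day 1. The change from the controls was still -5.23 (SE 0.22), or 37.6-fold, and all 6 mice lay under every control. At day 7, 8.50% of all genes were called lower, and Pla2g2d ranked 2, after Npb at -5.27 (SE 1.26), a neuropeptide gene.

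In levels relative to the array median, neutrons at 1 Gy took Pla2g2d down less far than 4 Gy x-rays and further than 1 Gy x-rays. The 6 mice of day 1 ranged from -3.37 to -1.27 with a median of -2.28, and all lay below every control. The change was -4.03 (SE 0.37), or 16.3-fold, and ranked 3 in a comparison in which 10.5% of all genes were called lower. At day 7 the levels ran from -2.57 to -1.46 with a median of -2.02, again with no overlap with the controls. The change of -3.46 (SE 0.26) ranked 1, and 13.3% of all genes were called lower. The levels of both days overlapped, and their means differed by 0.43, which is less than the spread between mice. The arrays of 1 Gy neutrons at day 7 were the dimmest, with 40.2 to 50.3% of spots well above background against 54.3 to 63.9% in the controls of the day, and the Pla2g2d probe had an intensity of 17.4 to 35.5 there against 741.5 to 1453 in the controls. With normexp background correction the change was -1.84, and relative to the spike-in controls it was -5.52, where the median gene stood at -1.75. The part of the dim arrays in the size of this change was not tested.

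At the same physical dose of 1 Gy, x-rays left the transcript much higher than neutrons did. The 1 Gy x-ray mice of day 1 had levels from -0.14 to 0.58 with a median of 0.11, all 6 below every control. The change was -1.45 (SE 0.23) and ranked 164, while 4.56% of all genes were called lower. In none of the x-ray comparisons did an irradiated mouse share a scan date with a control, so exposure and date cannot be told apart there. At day 7 the levels were 0.47, 0.49, 0.37, 0.71 and -0.68, and 4 of 5 mice lay below every control. The change there was -1.23 (SE 0.29), ranked 287, with 0.709% of genes called lower. The mean in 1 Gy x-ray mice exceeded that after 1 Gy neutrons by 2.57 at day 1 and by 2.24 at day 7, and on both days every x-ray mouse was above every neutron mouse. Likewise, on both days every 1 Gy neutron mouse was above every 4 Gy x-ray mouse, by 1.77 in the means at day 7. Before centring, the probe had day 7 intensities of 17.4 to 35.5 after 1 Gy neutrons and 29.6 to 71.0 in 4 Gy x-ray mice. The order of these 2 groups at day 7 thus depends on the centring.

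**Figure D2:**
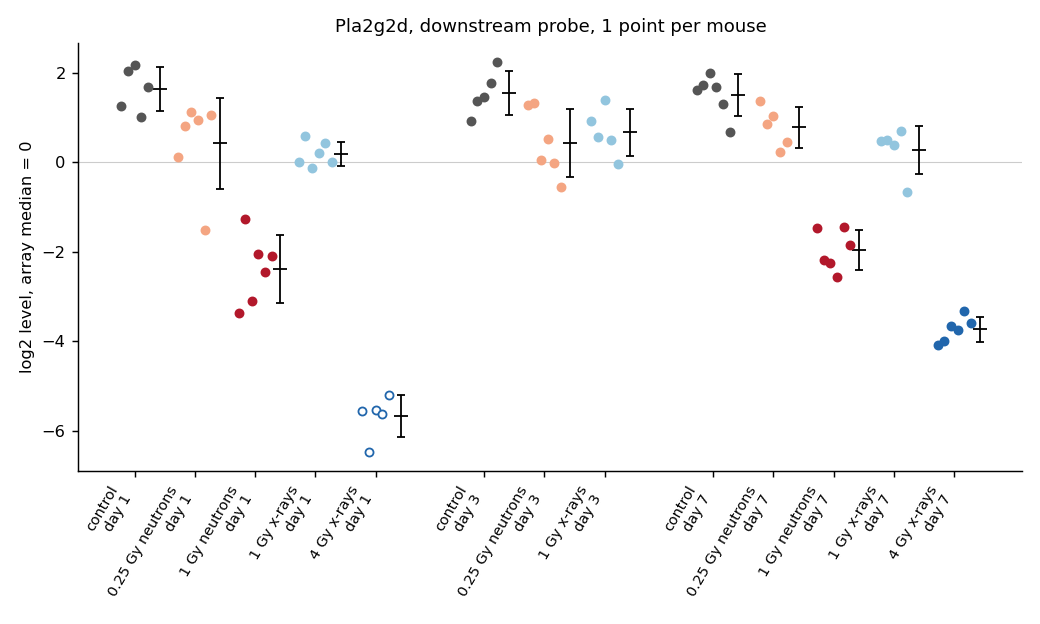
Level of Pla2g2d from its downstream probe (log2, relative to the median detected probe of the array) in each mouse, by exposure and day. Open points mark the 5 arrays of 4 Gy x-rays at day 1, where the probe was not well above background. Black marks give mean and SD. The 1 Gy neutron and 4 Gy x-ray groups lie entirely below the controls of their day.

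The lowest dose, 0.25 Gy neutrons, gave the smallest changes of days 1 and 7. At day 1 the 6 mice ranged from -1.52 to 1.11 with a median of 0.87, and 4 of 6 lay below every control. The change was -1.22 (SE 0.45, rank 59, with 0.00921% of genes called lower). A single mouse, replicate 5, had the level of -1.52, and without it the change was -0.83. At day 7 the levels were 1.37, 0.85, 1.02, 0.22 and 0.44, of which 2 lay below every control, and the change was -0.71 (SE 0.26, rank 348, with 0% of genes called lower). The group means after 0.25 Gy neutrons and in 1 Gy x-ray mice differed by 0.24 at day 1 and by 0.51 at day 7, with overlapping mice on both days.

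Day 3 is the time at which Pla2g2d could be tested. After 0.25 Gy neutrons the 6 mice ranged from -0.57 to 1.31 with a median of 0.27, and 4 of 6 lay below every control of the day. The change was -1.12 (SE 0.36), with limma adjusted p = 0.0941 over all 10863 genes, so it did not pass. After 1 Gy x-rays the levels were 0.92, 0.55, 1.38, 0.50 and -0.04, of which 3 lay below every control. This change was -0.88 (SE 0.32), with limma adjusted p = 0.137, and did not pass either. Genes called lower made up 0.626% and 0.414% of all genes in these comparisons. Only 2 of the 6 neutron mice were scanned on a date shared with controls, and with scan date as a block the neutron change was -0.25 with limma adjusted p = 0.858. Over all alternatives the limma adjusted p ran from 0.0467 to 0.858 after neutrons and from 0.0117 to 0.319 in x-ray mice, with no call in any.

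Ordered by their mean levels relative to the array median, the 13 groups began with the 3 control groups, which did not differ beyond their spread. A step of 0.71, larger than the SD of 0.46 but with overlapping mice, led to 6 groups, of 0.25 Gy neutrons and 1 Gy x-rays on all days, whose means ran from 0.78 to 0.18 and whose neighbours all overlapped and differed by less than 1 SD. A gap of 2.15 separated the last of these from 1 Gy neutrons at day 7, with no overlap of mice. The 1 Gy neutron groups of both days did not differ from each other beyond their spread. The next group, 4 Gy x-rays at day 7, was lower by 1.34, with a single pair of extreme mice overlapping. The last was 4 Gy x-rays at day 1, where the probe was below background and its mean lay at or under a limit of -4.74, against -3.74 at day 7.

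Over all 72 arrays the 5 most alike of the tested genes were Fcer2a (Pearson r = 0.979), Fcmr (0.972), Chst3 (0.967), Ebf1 (0.964) and H2-Oa (0.960), where the median gene had r = -0.01 and 1% of genes had r above 0.881. Fcer2a encodes CD23, the low-affinity IgE receptor of mature B cells, and Fcmr the receptor for IgM. Chst3 encodes a chondroitin sulfotransferase, Ebf1 a transcription factor of the B lineage, and H2-Oa a chain of the H2-O molecule that limits peptide loading onto MHC class II. Over the cell lists the median r was 0.92 for 19 B cell genes, 0.85 for 10 genes of antigen presentation, 0.53 for 21 T cell genes and -0.13 for 14 monocyte genes. These correlations are a description, since arrays of the same exposure share both the loss of Pla2g2d and that of many other transcripts.

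Removing the group means leaves only the differences between mice of the same exposure and day, which the choice of the gene did not use. This was done over the 67 mice of the 12 groups in which the probe was above background. The closest genes were then Cd83 (r = 0.861), H2-Oa (0.798), Fcer2a (0.795), Rasgrp3 (0.782) and Prkd2 (0.778), while 1% of genes had r above 0.612. Cd83 encodes a surface protein of activated and antigen-presenting cells, Rasgrp3 an activator of Ras in B cells, and Prkd2 a kinase. Both rankings thus shared Fcer2a and H2-Oa. Without replicate 5 of 0.25 Gy neutrons at day 1, the values were 0.813 for Cd83, 0.726 for H2-Oa, 0.727 for Fcer2a, 0.709 for Rasgrp3 and 0.694 for Prkd2.

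**Figure D3:**
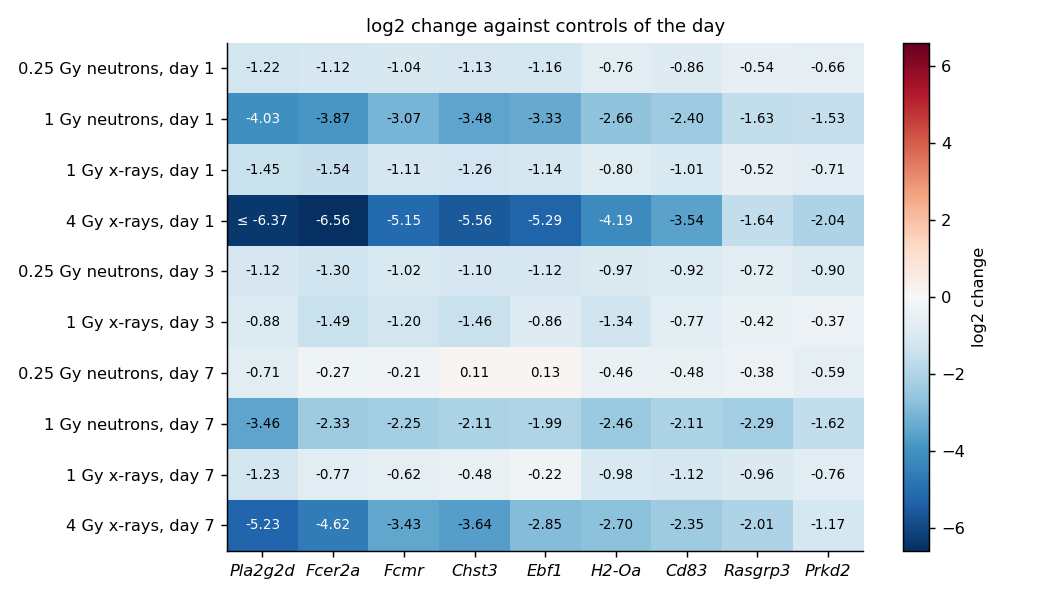
Changes (log2, irradiated minus controls of the day) of Pla2g2d and of the 8 genes most like it over all arrays or within groups, one row per comparison. The Pla2g2d value for 4 Gy x-rays at day 1 is an upper limit. At 1 Gy neutrons and 4 Gy x-rays all 9 genes were lower than in controls on both days.

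Between days 1 and 7 the distance from Pla2g2d grew for some of the genes most like it and shrank for others. After 1 Gy neutrons at day 1, Fcer2a was at -3.87 and Ebf1 at -3.33, beside -4.03 for Pla2g2d. At day 7 they were at -2.33 and -1.99, beside -3.46. After 1 Gy x-rays the values at day 1 were -1.54 for Fcer2a, -1.14 for Ebf1 and -1.45 for Pla2g2d, and at day 7 they were -0.77, -0.22 and -1.23. The other genes most alike within groups lay nearer to Pla2g2d at day 7 than at day 1 in both exposures. After 1 Gy neutrons Cd83 was at -2.40 and -2.11 on days 1 and 7, and H2-Oa at -2.66 and -2.46. Rasgrp3 was at -1.63 and -2.29 there, and Prkd2 at -1.53 and -1.62. In 1 Gy x-ray mice the values at day 1 were -1.01 (Cd83), -0.80 (H2-Oa), -0.52 (Rasgrp3) and -0.71 (Prkd2). At day 7 they were -1.12, -0.98, -0.96 and -0.76 in the same order. These differences between genes were not tested.

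Most B cell transcripts fell in the comparisons with the largest changes of Pla2g2d. The B cell list held 22 genes, of which 19 were tested. At day 1 in 4 Gy x-ray mice all 19 were called lower, against 18.6% of all genes. Their median change was -4.16, where the median of all genes was 0.00. Among them the membrane protein gene Ms4a1 (CD20) was at -3.82 and the receptor chain gene Cd79a at -4.18. After 1 Gy neutrons 18 of 19 were called lower at day 1 (median -2.61), against 10.5% of all genes. At day 7 there were 16 (median -2.19), against 13.3%, and in 4 Gy x-ray mice 18 (median -2.82), against 8.50%. The counts were 10 (median -0.84) and 5 (median -0.77) in 1 Gy x-ray mice at days 1 and 7, against 4.56% and 0.709%. At 0.25 Gy neutrons none was called lower at day 1 (median -0.96) or day 7 (median -0.10). Of all genes, only 0.00921% and 0% were called lower there. At day 3 there were 7 (median -1.01) after 0.25 Gy neutrons and 1 in 1 Gy x-ray mice, against 0.626% and 0.414%. In 8 of the 9 comparisons in which Pla2g2d was above background, it lay below the median of this list, the exception being 1 Gy x-rays at day 3. After 1 Gy neutrons on both days, and in 4 Gy x-ray mice at day 7, no member of the list had a lower value than Pla2g2d.

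Genes of antigen presentation by MHC class II fell in these comparisons too. All 10 members were called lower at day 1 after 1 Gy neutrons (median -2.49) and in 4 Gy x-ray mice (median -3.64), and 9 were at day 7 in each (medians -1.57 and -1.48). Of all genes, 10.5% and 18.6% were called lower in these comparisons at day 1, and 13.3% and 8.50% at day 7. Their leading members are H2-Aa, H2-Ab1 and H2-Eb1, the chains of the class II molecules that B cells, monocytes and dendritic cells carry. The direction of both lists in each of the 10 comparisons was the same under all 5 other scalings.

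Fewer T cell transcripts were called. The list of 21 genes, led by the CD3 chains Cd3d, Cd3e and Cd3g, had 14 members called lower and 1 higher at day 1 in 4 Gy x-ray mice (median -1.82), and 8 lower after 1 Gy neutrons (median -0.96). Of all genes, 18.6% were called lower and 16.5% higher in the former, and 10.5% lower in the latter. At day 7, 5 were lower after 1 Gy neutrons (median -0.56), with 13.3% of all genes called lower. In 4 Gy x-ray mice of that day 2 were lower and 1 higher, with 8.50% of all genes called lower and 9.06% higher. The median there was -0.05, which turned positive under 1 other scaling. Cd3e was at -1.56 in the first and at 0.21 in the last of these comparisons. In all 9 comparisons with the probe above background, Pla2g2d was lower than the median of the T cell list.

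Transcripts of myeloid cells were called in both directions. Genes called higher made up 6.96% of all genes in the 1 Gy neutron and 16.5% in the 4 Gy x-ray comparison of day 1, and 25.1% and 9.06% in those of day 7. Those called lower made up 10.5% and 18.6% in the same comparisons of day 1, and 13.3% and 8.50% at day 7. Of 14 monocyte genes, 4 were called lower and 2 higher at day 1 in 4 Gy x-ray mice (median 0.23, negative under 3 of 5 other scalings) and 5 were called higher at day 7 (median 0.19), with Cd14, a receptor for bacterial lipopolysaccharide, at 2.75 and 2.10 and the chemokine receptor gene Cx3cr1 at -2.13 on day 1. After 1 Gy neutrons 1 was higher at day 1 and 2 at day 7, where the median of 0.39 turned negative under 2 scalings. Of 12 neutrophil genes, none was called lower in any comparison, and 2, 2, 6 and 4 were called higher after 1 Gy neutrons and in 4 Gy x-ray mice of day 1, and after the same exposures at day 7. Their median of 1.31 after 1 Gy neutrons at day 7 was -0.74 relative to the spike-in controls.

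**Figure D4:**
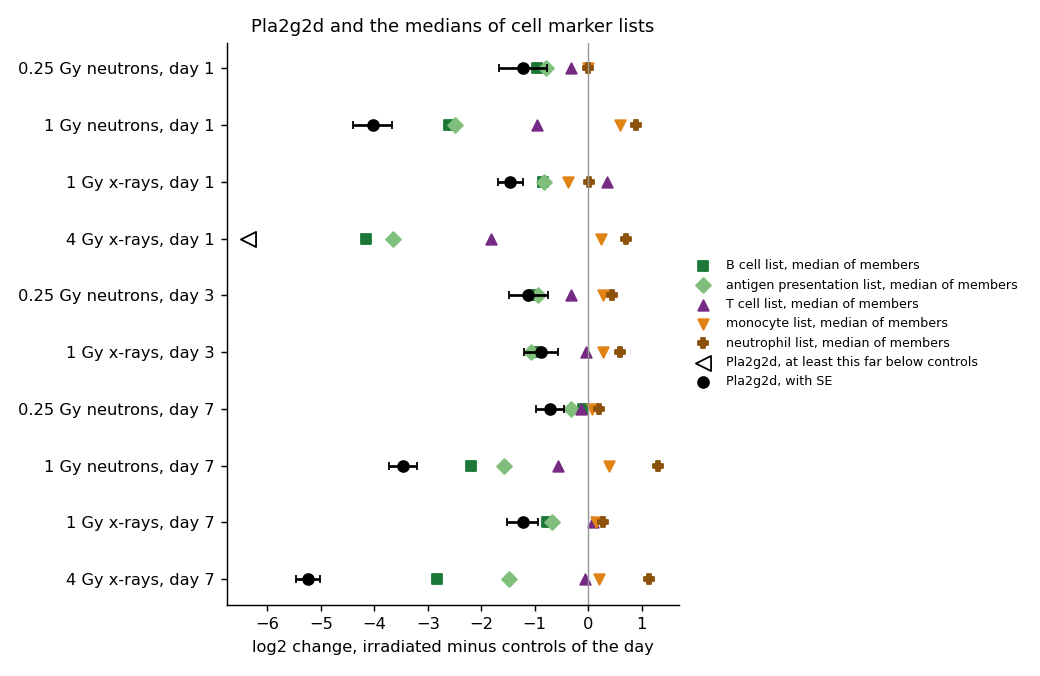
Change of Pla2g2d (black, with SE) beside the median change of 5 marker lists, in each comparison with the controls of the day (log2). The open triangle is the limit for 4 Gy x-rays at day 1. Pla2g2d lies to the left of the T cell, monocyte and neutrophil medians in every row, and to the left of the B cell median except in 1 Gy x-ray mice at day 3.

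Within groups, mice with more B cell transcript had more Pla2g2d. Scores were the mean log2 level of the detected members of a list, and 11 lists were compared with the level of Pla2g2d over the same 67 mice, by permutation within groups. For the B cell score Pearson r was 0.686 (permutation p = 2e-05, adjusted p = 0.00022) and Spearman rho 0.564 (permutation p = 4e-05, adjusted p = 0.00044). The correlation was above 0 in all 12 groups taken alone, and it was 0.700 within scan dates. Without the 2 mice with the most extreme B cell scores r was 0.546. Without replicate 5 of 0.25 Gy neutrons at day 1, it was 0.561 (permutation, adjusted p = 0.00121). Over the 16 control mice alone r was 0.578, which did not pass (permutation, adjusted p = 0.0834).

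For the T cell score the relation rested on 1 mouse. Over all 67 mice r was 0.445 (permutation p = 0.019, adjusted p = 0.0419), with rho 0.278 (permutation p = 0.0363, adjusted p = 0.0765), and r was 0.491 within scan dates. Without the 2 most extreme mice it was 0.188, and without replicate 5 of 0.25 Gy neutrons at day 1 alone it was 0.184 (permutation, adjusted p = 0.358). That mouse had the lowest Pla2g2d level of its group and also its lowest B cell score (0.60, with the others between 2.54 and 3.06) and T cell score (0.40, with the others between 1.95 and 2.79). Its monocyte score of 0.73 was below the 1.39 to 2.48 of the others, and its liver score of 9.70 was above their 2.80 to 7.09.

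No relation with Pla2g2d passed the test for myeloid transcripts. The monocyte score gave r = -0.03 (permutation, adjusted p = 0.953) with rho -0.15 (permutation p = 0.291, adjusted p = 0.415), and the neutrophil score r = 0.00 (permutation, adjusted p = 0.982) with rho 0.05 (permutation p = 0.694, adjusted p = 0.694). Within scan dates these were 0.18 and 0.08, and without the 2 most extreme mice -0.24 and 0.04. Relative to the spike-in controls, which leave the overall brightness of an array in every value, both correlations became positive, at 0.442 and 0.377.

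**Figure D5:**
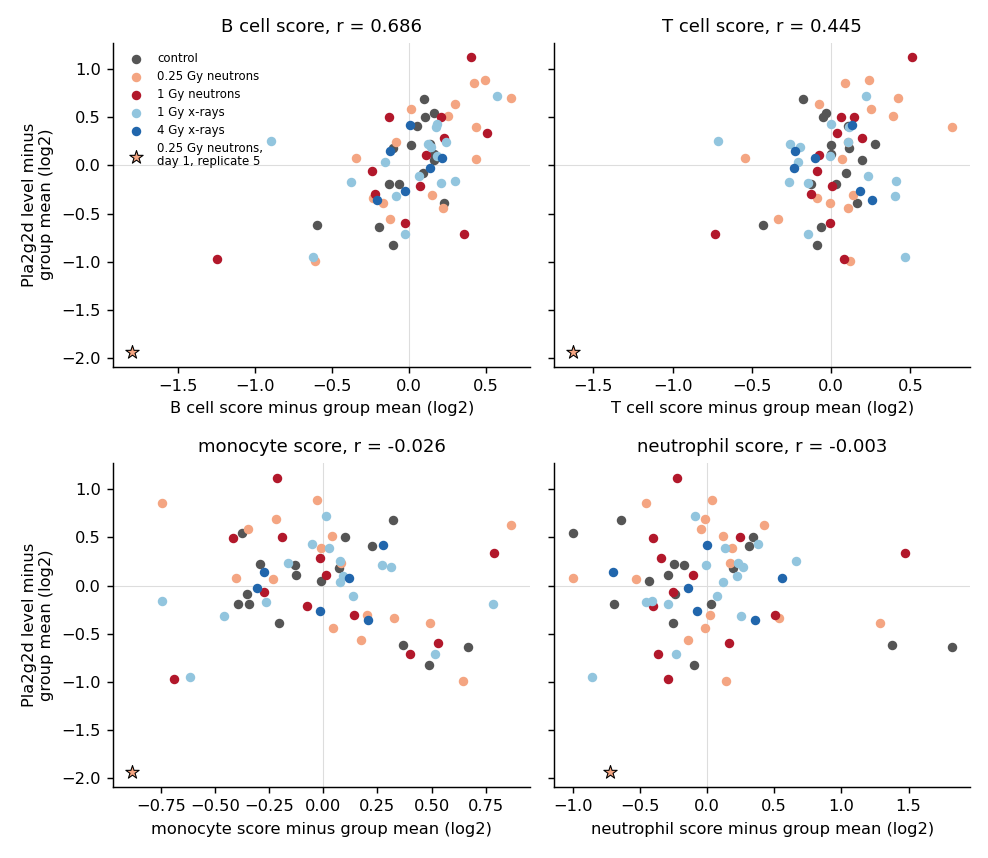
Level of Pla2g2d against the B cell, T cell, monocyte and neutrophil scores in 67 mice, each minus the mean of its group (log2). Colours give the exposure, and the star is replicate 5 of 0.25 Gy neutrons at day 1. The correlation is 0.686 for B cells and falls from 0.445 to 0.184 for T cells without the star.

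Among the other 7 scores, antigen presentation passed (r = 0.573, permutation, adjusted p = 0.00264) and still did without that mouse (r = 0.42, permutation, adjusted p = 0.0388), but not with normexp background correction (0.259), in the control groups alone (0.219) or without the group of that mouse (0.409). Regulatory T cell (r = 0.499, permutation, adjusted p = 0.0336) and NK cell scores (r = 0.483, permutation, adjusted p = 0.0258) passed over all 67 mice and not without it, at 0.238 and 0.254. Dendritic cell (r = 0.307), platelet (0.194), erythroid (0.153) and liver scores (-0.27, permutation, adjusted p = 0.0574) did not pass. With scan date means removed, the dendritic cell score (0.492, permutation, adjusted p = 0.0202) and the liver score (-0.35, permutation, adjusted p = 0.0366) did. So did the erythroid score (0.375, permutation, adjusted p = 0.0416). As a list, dendritic cell markers, among which Flt3, Itgax and Zbtb46 are defining, had 11 genes tested and 5 called lower at day 1 in 4 Gy x-ray mice, where their median was -1.16. Regulatory T cell markers such as Foxp3 had 6 tested and 3 called lower there (median -1.01), and of 13 NK cell markers 1 was called higher. Of all genes, 18.6% were called lower and 16.5% higher in that comparison. At day 7 in 4 Gy x-ray mice, where 8.50% of all genes were called lower and 9.06% higher, 6 NK cell and 2 dendritic cell markers were called higher and 1 regulatory T cell marker lower, with medians of 0.82, 0.06 and 0.60.

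Liver transcripts were present in some blood samples and differed between groups. Of 19 liver genes on the array 7 were tested, and 12 more, among them Alb and Apoa1, failed the detection limit over all arrays. Liver scores were 8.34 to 9.24 in the 5 mice of 4 Gy x-rays at day 1 and 0.86 to 7.53 in the controls of the day, where 2 of the 7 genes were called higher, and at day 3 they were 5.38 to 8.67 after 0.25 Gy neutrons and -1.56 to 7.17 in controls. Their part in the change of Pla2g2d was not tested. Platelet and erythroid markers also differed between groups. At day 1 in 4 Gy x-ray mice 9 of 15 erythroid genes were called lower and 1 higher, against 18.6% and 16.5% of all genes. At day 7 after 1 Gy neutrons 13 of 15 were higher, against 25.1%. In 1 Gy x-ray mice at day 1, 8 of 15 were lower, against 4.56%. Their median there, -1.67, was below the -1.45 of Pla2g2d, and 8 members were lower than Pla2g2d. No platelet gene was called lower in any comparison, and 5 of 13 were higher in 1 Gy x-ray mice at day 3, where 1.58% of all genes were.

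The other secreted phospholipases A2 were called in both directions. Of 11 further genes in this list, 6 could be tested, and Pla2g2a, Pla2g2c, Pla2g5, Pla2g12b and the receptor gene Pla2r1 failed the detection limit. Pla2g2e, a gene of the same cluster, was called lower at day 1 in 1 Gy x-ray mice (-1.98, SE 0.40, limma adjusted p = 0.00758) and 4 Gy x-rays (-2.18, SE 0.35, limma adjusted p = 0.000329), and higher at day 7 after 1 Gy neutrons (2.65, SE 0.35, limma adjusted p = 2.89e-05). Its value in the last comparison was 0.60 relative to the spike-in controls, and with normexp background correction those at day 1 were -0.91 and -0.22. Pla2g10, a highly active secreted enzyme, was called higher at day 1 after 1 Gy neutrons (1.75) and in the x-ray mice of 1 Gy (1.49) and 4 Gy (1.79). Of all genes, 6.96%, 3.09% and 16.5% were called higher in these comparisons. Pla2g10 was also called higher in 1 Gy x-ray mice at day 3 (1.38, with 1.58% of all genes), where Pla2g2d was not called. That call was kept under none of the 5 other scalings. Pla2g12a was called higher at day 7 after 1 Gy neutrons (1.72), which became -0.39 relative to the spike-in controls. Pla2g2f passed in no comparison, with changes between -2.13 and 1.26, and Pla2g3 was called lower at day 7 in 4 Gy x-ray mice (-1.46).

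Along the chromosome, Pla2g2e was the only tested neighbour called lower. Of the 5 protein-coding genes on each side, 4 were tested. Beside Pla2g2e and Pla2g2f, these were Camk2n1, which encodes an inhibitor of a calmodulin-dependent kinase and was called higher in 4 Gy x-ray mice at day 1 (2.66) and day 7 (2.07), and Otud3, a deubiquitinase gene called higher at day 1 in 4 Gy x-ray mice (1.61).

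Other steps of the pathway, from the release of fatty acids to the receptors of lipid mediators, changed in both directions. Over 4 lists 41 genes were tested and 27 were called in at least 1 of the 10 comparisons, which is 65.9%, against 66.6% of all genes. Higher calls were made for 21 of them and lower calls for 7, with 1 in both. The same split by direction was not counted over all genes, so no lean of the pathway can be read from it. After 1 Gy neutrons at day 7 alone, 25.1% of all genes were called higher and 13.3% lower. Of 8 other phospholipase A2 genes, the platelet-activating factor hydrolase genes moved apart, with Pafah2 at 2.21 (SE 0.38, limma adjusted p = 0.000452) and the related subunit gene Pafah1b3 at -1.58 at day 1 in 4 Gy x-ray mice. Pla2g4a, the cytosolic enzyme that releases arachidonic acid, was called higher at day 1 after 1 Gy neutrons (1.27) and in the x-ray mice of 1 Gy (1.08) and 4 Gy (1.29). These calls were kept under 4, 3 and 1 of the 5 other scalings. Pla2g4a was also called higher in 1 Gy x-ray mice at day 3 (1.395), a call kept under none of the 5.

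Of 15 oxygenase and synthase genes, 8 had higher calls and 2 lower ones, again without such a split over all genes. At day 1 after 1 Gy neutrons the cyclooxygenase gene Ptgs1 was at 1.65 (SE 0.30, limma adjusted p = 0.00164) and the thromboxane synthase gene Tbxas1 at 1.60 (SE 0.28, limma adjusted p = 0.00137). At day 1 in 4 Gy x-ray mice the prostacyclin synthase gene Ptgis was at 3.76 (SE 0.76, limma adjusted p = 0.00121), the prostaglandin D synthase gene Ptgds at 2.91 and Mgst2, a microsomal glutathione transferase gene, at -1.63. Ptgds was above background in 2 of 5 controls there. Of 12 receptor genes, Gpr18, which encodes a lipid receptor of lymphocytes, was called lower after 1 Gy neutrons and 4 Gy x-rays on both days, with its largest change of -3.29 (SE 0.33, limma adjusted p = 1.74e-05) at day 1 in 4 Gy x-ray mice. Those are the 4 comparisons with the largest changes of Pla2g2d, and also those with the most genes called lower. The shares at days 1 and 7 were 10.5% and 13.3% after 1 Gy neutrons, and 18.6% and 8.50% in 4 Gy x-ray mice. The thromboxane receptor gene Tbxa2r was at -2.24 (SE 0.24, limma adjusted p = 2.26e-05) in that same comparison. Fpr2, a receptor of neutrophils for formyl peptides and lipid mediators, was at 1.81 (SE 0.29, limma adjusted p = 0.00103) at day 1 after 1 Gy neutrons.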

How the data were processed

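The authors extracted each array with Agilent Feature Extraction 12.0.2 (per the labels), and the deposited intensities are its background-corrected signals, not normalized between arrays. The deposited table of log2 values, normalized by the authors, was used only as an alternative for 0.25 Gy neutrons at day 1, since 12 of its 72 columns follow the array they are named for. Groups come from the sample labels, each sample being 1 mouse. Control spots (1377 of 44397) and outliers were dropped, log2 values of replicate spots were averaged, and the median of the 19808 detected probes was subtracted from each array (detected meaning dim or outlying on fewer than 25% of arrays from days 1 and 7). Probes differing 1.5-fold from their median on 20% of arrays were kept (12556) and the brightest per gene was used, giving 10863 genes. Names came through transcript accessions for 28330 probes.

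Irradiated groups were compared with the controls of the day by limma 3.58.1 in R 4.3.3 (lmFit and eBayes, 2-sided, on those groups alone), tested on simulated data, with Benjamini-Hochberg adjustment over all genes. Calls required p under 0.001 with FDR under 0.05. The lower limit on the change of a probe not well above background on any array of a group set, per array, the higher of its own signal and the lowest signal of a probe well above background against the control mean. Correlations used residuals from group means and 100000 permutations within groups, 2-sided, adjusted over 11 scores. Same-numbered mice of different groups had residual correlations from -0.56 to 0.65 over 52 pairs, so the numbers were not taken to pair them. Precision is limited by the number of mice per group.

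Besides Pla2g2d, the genes named are the called pathway genes with the largest changes (at most 12), the leading members of each cell list, the 5 genes most like Pla2g2d by each measure and the tested neighbours. Cx3cr1, Pafah1b3, Pla2g3, Pla2g4a, Npb and the undetected genes were named after their values were seen. One leading member of a cell list is not reported here. The gene and all lists were chosen with earlier results of these data known. Alternatives were other centrings (75th percentile, all probes, spike-in controls), quantile normalization, normexp background correction, dim spots as missing, no filter, fits on all groups, scan date, slide and replicate number as blocks, and leaving out mice or groups. The slide block, the values within a shared scan date and the correlations without 1 mouse were added after seeing the data.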

Additional observations from a re-analysis of the deposited data

Results flagged for a closer look

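In 1 Gy x-rays at day 7, replicate 5 had a Pla2g2d level of -0.68, and its gap to the nearest of the 4 other mice was 0.76 of the range of the group. Chance gives such a gap in about 1 of 20 groups, and 13 groups were examined. The upstream probe, which no comparison used, was above background and above every control of its day in 2 irradiated mice, with levels of -5.20 (intensity 28.0) in replicate 6 of 1 Gy x-rays at day 1 and -3.05 (intensity 72.3) in replicate 4 of 0.25 Gy neutrons at day 3.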

How the results depend on the processing

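The change of Pla2g2d was below 0 in all 10 comparisons under all 215 settings tried, of which 110 left out single mice. Its size moved with the treatment of dim signals. With normexp background correction it was -2.93 after 1 Gy neutrons at day 1, -1.84 after 1 Gy neutrons at day 7 and -3.17 in 4 Gy x-ray mice at day 7, and the limit for 4 Gy x-rays at day 1 became -2.91. Relative to the spike-in controls the changes at day 7 were -1.83 after 0.25 Gy neutrons, -5.52 after 1 Gy neutrons and -2.14 in 1 Gy x-ray mice, where the medians of all genes were -1.06, -1.75 and -0.87. For 1 Gy neutrons at day 7 the value was -4.00 with dim spots as missing and -2.96 with scan date as a block, the same as within the shared date, which held 1 of the 6 irradiated mice. The cause of these shifts was not tested. No x-ray mouse shared a scan date with its controls, so in every x-ray comparison exposure cannot be told apart from the date. Treating date as a random block gave 1 Gy x-ray changes of -1.45, -0.80 and -1.24 on days 1, 3 and 7, which does not separate the 2. In 4 Gy x-ray mice of day 7 no such fit was possible. At day 3 the limma adjusted p was 0.0117 with that block for 1 Gy x-rays, and 0.0467 for 0.25 Gy neutrons in a fit on all groups, both without p under 0.001. For the limit at day 1 no block, all-group or dim-spot fit was made.

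The within-group correlation with the B cell score was 0.58 in the 3 control groups alone, where it did not pass. That with the T cell score did not pass in the control groups (0.25) or with normexp background correction (0.16), and between 0.184 and 0.520 when a group or the mouse named above was left out, it no longer passed without 0.25 Gy neutrons at day 1 (0.19), 1 Gy neutrons at day 1 (0.41), 0.25 Gy neutrons at day 7 (0.43) or the controls of day 1 (0.45). The monocyte and neutrophil correlations turned positive and passed relative to the spike-in controls, at 0.44 and 0.38. With normexp, 11 of the pathway genes were called in place of 27. The share of all genes called under that setting is not given here, so the drop cannot be read as one of the pathway. The mice of different groups that share a replicate number were not paired by it, as their residuals did not correlate alike, and with replicate number as a block the changes at day 3 were -0.92 and -0.88, with limma adjusted p of 0.371 and 0.181, and the B cell correlation 0.67. That block ended no call. Other settings left the B cell, T cell, monocyte and neutrophil correlations on the same side of the threshold. Of the other scores, antigen presentation no longer passed in 3 settings, regulatory T cells in 6 and NK cells in 5, while dendritic cells passed in 6, platelets in 1, erythroid cells in 2 and liver in 8. The precision of every value is limited by 5 or 6 mice a group and, for Pla2g2d in 4 Gy x-ray mice at day 1, by the background of the array.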
